A study of Rattus norvegicus with 20 samples.

Results

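Epididymal tissue of rosiglitazone-treated rats was compared with that of lean control rats, over 5 arrays titled rosiglitazone and 5 titled lean control, 10 of the 20 arrays of the study. The comparison covered 14557 genes whose probe sets name 1 gene symbol. All animals were male ZDF rats (the Zucker Diabetic Fatty line, in which an inactive leptin receptor causes obesity and diabetes), with the strain labelled Zucker, and they were caged singly with free access to food under a reversed light cycle with 12 h of light. Lean controls ate standard chow, and obese rats received a stock diet for 6 weeks. The titles of the treated arrays name the drug and do not call the rats obese. No label states what the treated rats ate, how much rosiglitazone they got, by which route or for how long, the age of any animal or the leptin receptor allele of the lean rats. If the treated rats were the obese rats of the design, genotype, diet and drug cannot be told apart between these groups. Of the other arrays, the 5 titled obese are given beside many of the named genes and the 5 titled resveratrol beside a few. Differences set side by side share the lean control or the rosiglitazone arrays.

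Rosiglitazone is a thiazolidinedione that activates PPAR-gamma, a nuclear receptor which pairs with RXR on DNA and is the main regulator of fat cell formation. In fat, PPAR-gamma switches on genes for taking up, binding, storing and burning fatty acids, and drugs of this class are known for improving insulin sensitivity while increasing fat mass. Visceral fat of obese rodents usually gains macrophages and leptin message. Whether the fat of treated obese rats comes to look like that of lean rats, or differs from it in its own way, is the question this pair of groups addresses.

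The tissue is labelled only as epididymal. Defining fat cell genes were among the brightest on the arrays: carbonic anhydrase Car3, lipoprotein lipase Lpl, the fatty acid carrier Fabp4 and adiponectin (Adipoq) averaged 11.78, 11.25, 11.07 and 10.96 log2 units in lean controls. Of 17 measured markers of epididymal epithelium and sperm, 0 were above background in either group. Background here is a log2 level of 3.11, the 95th percentile of 1279 genes whose symbols match smell, vomeronasal or taste receptors. This match by symbol also took in Olr1, the oxidized LDL receptor described below. Because whole tissue was measured, fewer cells of a type and less RNA per cell cannot be told apart.

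Lean control replicate 3 stood apart from its group. On the first principal component of the 10 arrays, it lay at 9.67, against -50.3 to -25.8 for the other 4 lean arrays and 23.6 to 36.9 for rosiglitazone. Its mean rank correlation was 0.946 with the other lean arrays and 0.958 with the rosiglitazone arrays. The spread of log2 signal over an array was 1.90 ± 0.04 (SD, n = 5) for rosiglitazone and 1.80 ± 0.07 (SD, n = 5) for lean control (exact permutation test, two-sided p = 0.0317), and replicate 3 had 1.91. Counts over all genes between rosiglitazone and lean control are therefore also given without that array. So are list counts and named genes that shift when it is left out.

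**Figure D1:**
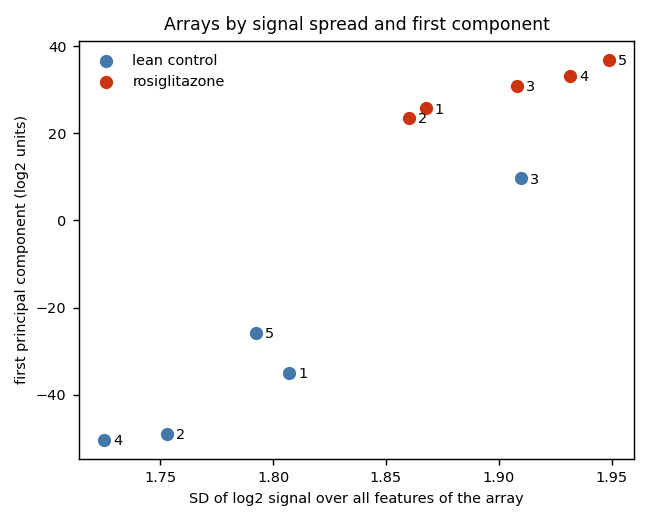
Each point is an array, numbered by replicate, with the SD of its log2 signal over all features on the x axis and its position on the first principal component of the 10 arrays on the y axis. Lean control replicate 3, at 1.91 and 9.67, lies nearer the 5 rosiglitazone arrays than the other 4 lean arrays do.

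Across the genome the groups differed widely. At an adjusted p below 0.05 (limma, Benjamini-Hochberg over all genes), 3632 genes or 25% of those tested passed: 2678 were higher with rosiglitazone (18.4%) and 954 lower (6.55%). The groups of 5 did not overlap for 1613 genes (11.1% of those tested). The 12 highest and 12 lowest genes named below were chosen among such genes, so for them a lack of overlap is part of the choice. Fabp3, Cpt1b, Me1, Elovl6, Alb, Cilp, Nnat, Ace and Cd34 are among them. At least a 2-fold difference was found for 644 higher (4.42%) and 124 lower genes (0.852%), and at least a 4-fold one for 74 and 7. Without lean control replicate 3, 4868 genes passed (33.4%), 3442 higher (23.6%) and 1426 lower (9.8%), and 3535 genes passed both times. In the same model 105 genes (0.721%) passed between obese and lean control arrays, 85 of them higher in obese (0.584%), and 1310 (9%) between rosiglitazone and obese arrays, 920 of them higher with rosiglitazone (6.32%). Every difference of obese from lean arrays given here includes lean control replicate 3. None was refitted without that array or after another scaling, so the 105 is not matched to the 4868.

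The split into higher and lower depended on how the arrays were put on 1 scale. Of the genes called, 73.7% were higher as deposited and 52.5% after quantile normalization (2793 called or 19.2% of all genes, 1466 or 10.1% higher and 1327 or 9.12% lower). With the array's signal SD as a covariate it was 55% (1116 called or 7.67%, 614 or 4.22% higher and 502 or 3.45% lower). Genes above background in the brighter group had a median difference of 0.30 as deposited and 0.01 after quantile normalization, while the median over all genes was 0.01. A list of bright genes therefore starts from a shift of about 0.30, and counts for the main lists are followed by those after quantile normalization, some of them also with the signal SD as a covariate (the SD covariate). Among the 7416 genes above background, 34.5% were called higher and 6.41% lower.

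**Figure D2:**
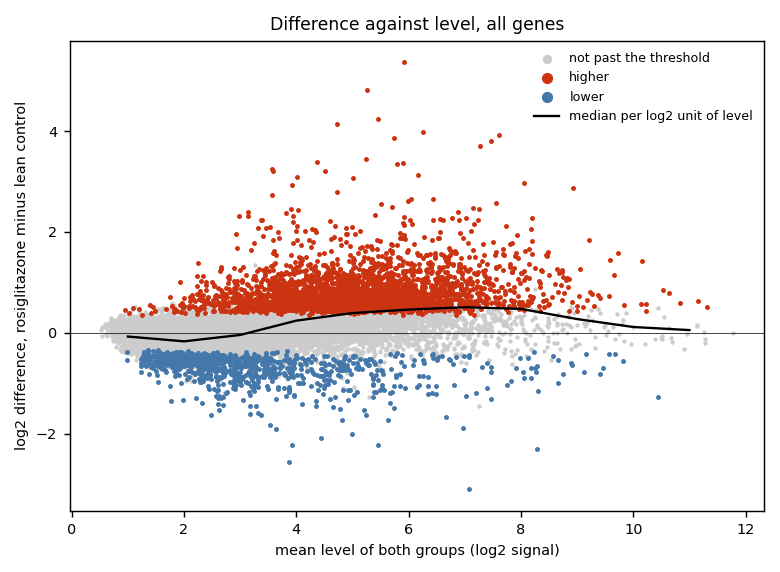
Each point is a gene, with the mean log2 level of both groups on the x axis and the log2 difference, rosiglitazone minus lean control, on the y axis; red genes were called higher, blue ones lower and grey ones not called. The black line, the median per log2 unit of level, lies at -0.17 around level 2 and at 0.51 around level 7.

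Promoters of 4 genes are shown. Sucla2, Etfdh and Uqcrc1 were chosen because, among mitochondrial genes that were called higher and hold the motif marked, they had the smallest p, so their matches are part of the choice. Fabp3 had the largest difference. The RefSeq sequences (assembly GRCr8) are the 250 bases before the start on the strand of the gene. Capitals mark a match to the NRF1 motif (GCGC, any base, then TGCGC), the site of a factor that drives many nuclear genes for mitochondrial proteins. Sucla2, a succinyl-CoA ligase subunit of the citric acid cycle, lies at chr15:55161644-55161893, plus strand. Etfdh, which passes electrons from fatty acid oxidation to ubiquinone, lies at chr2:167060759-167061008, minus strand, and its match is on the other strand. Uqcrc1, a core subunit of complex III, lies at chr8:118467973-118468222, plus strand. Fabp3, the heart-type fatty acid carrier with the largest difference, lies at chr5:147935875-147936124, plus strand, and held no match to any motif searched.
Sucla2: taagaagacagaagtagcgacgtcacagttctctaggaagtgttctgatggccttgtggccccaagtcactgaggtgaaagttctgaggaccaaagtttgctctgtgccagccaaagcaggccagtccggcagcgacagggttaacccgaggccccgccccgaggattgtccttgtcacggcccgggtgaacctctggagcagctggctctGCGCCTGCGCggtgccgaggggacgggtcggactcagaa
Etfdh: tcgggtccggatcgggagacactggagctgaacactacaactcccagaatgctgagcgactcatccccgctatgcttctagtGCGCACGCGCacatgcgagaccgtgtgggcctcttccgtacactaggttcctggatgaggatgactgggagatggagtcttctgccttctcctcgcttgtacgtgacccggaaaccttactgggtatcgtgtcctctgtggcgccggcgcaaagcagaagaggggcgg
Uqcrc1: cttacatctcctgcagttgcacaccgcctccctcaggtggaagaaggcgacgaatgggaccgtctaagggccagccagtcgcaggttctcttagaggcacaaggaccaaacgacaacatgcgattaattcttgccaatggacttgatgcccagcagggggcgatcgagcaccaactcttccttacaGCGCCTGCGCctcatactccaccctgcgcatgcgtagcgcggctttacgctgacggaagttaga
Fabp3: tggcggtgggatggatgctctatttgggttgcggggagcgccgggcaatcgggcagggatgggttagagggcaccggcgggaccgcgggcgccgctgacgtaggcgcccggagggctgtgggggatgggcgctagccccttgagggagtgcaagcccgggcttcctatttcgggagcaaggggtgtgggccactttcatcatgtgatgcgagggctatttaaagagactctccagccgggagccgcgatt

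Of 11308 measured genes with a promoter in the table, 6.16% held the NRF1 motif on either strand. It was in 11.2% of promoters of above-background genes called higher, in 9.17% of those not called and in 2.28% of those called lower, and the median GC content of these sets was 60.4%, 59.6% and 54%. After quantile normalization the shares were 10.5% for higher and 5.79% for lower genes. In the 6 mitochondrial lists described next, 19 of 128 promoters (14.8%) held it, and 17 of those 19 genes were called higher and 0 lower. Of the 109 without it, 98 were called higher. The DR1 motif of PPAR and RXR (AGGNCA, any base, then AGGNCA again) was in 0.301% of all promoters and in 0 of 34 promoters of the PPAR target list, and the ERRA motif (TNAAGGTCA) in 0.663% of all and 0 of those 34. The letters of DR1 and ERRA matches can overlap, and an absent match says only that these letters are not in this window.

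Enzymes that burn fatty acids were higher almost throughout. Of 25 measured genes of mitochondrial fatty acid oxidation, 23 were higher and 0 lower, with a median difference of 1.56. The count was 23 without lean control replicate 3 and 20 after quantile normalization, where the median was 1.19, and 19 with the SD covariate. The largest member was the muscle-type carnitine palmitoyltransferase Cpt1b, which loads fatty acids for entry into mitochondria. On the log2 scale its levels were 4.15, 3.83, 5.20, 4.01 and 3.87 on the lean arrays and 7.63, 8.02, 7.29, 7.79 and 7.19 with rosiglitazone. All 5 treated arrays lay above every lean array, and lean replicate 3 was the highest lean array. The difference was 3.37 ± 0.22 (SE), 10.3-fold (limma, adjusted p = 1.2e-10), and obese arrays averaged 4.68. The liver-type Cpt1a was 4.45 and 4.93 and did not pass (limma, adjusted p = 0.10), but did without lean control replicate 3 (difference 0.73, limma, adjusted p = 0.0019).

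Other steps of the same route followed. The carnitine carrier Slc25a20 was 3.90-fold higher and Cpt2 3.26-fold. The thiolase Acaa2, which cuts off acetyl-CoA, read 6.70, 6.56, 7.85, 6.82 and 7.31 on the lean and 9.27, 9.41, 9.06, 9.54 and 9.35 on the treated arrays. It was 4.84-fold higher, and even the highest lean array stayed below the treated ones. The long-chain dehydrogenase Acadl was 3.86-fold higher and Etfdh 3.48-fold. In peroxisomes, where very long chains are shortened, 13 of 19 genes were higher and 0 lower (9 higher and 1 lower after quantile normalization), led by Hsd17b4 (3.14-fold), Crot (2.89-fold) and Eci2 (2.87-fold).

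Fabp3 carried the largest difference of all named genes. This carrier, typical of heart and muscle, read 3.28, 2.72, 4.19, 3.22 and 2.76 in lean controls, close to background. With rosiglitazone it read 8.78, 8.79, 7.88, 8.91 and 8.64. The lowest treated array lay far above the highest lean one. The fold was 41.3 (difference 5.37 ± 0.27 SE, limma, adjusted p = 1.4e-12), and because the lean mean of 3.23 lay near background it is approximate. Obese arrays averaged 3.72 and resveratrol arrays 3.89, and the rosiglitazone mean was above the obese one by 4.89 (limma, adjusted p = 1.3e-11). Its fat cell relative Fabp4, at 11.07 and 11.19, was not called (limma, adjusted p = 0.44).

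Genes that supply and run the citric acid cycle were higher as well. Of 20 genes of pyruvate metabolism and the cycle 17 were higher and 0 lower, with a median of 1.54 (1.69 without lean control replicate 3), and after quantile normalization 17 were higher and 1 lower. Pyruvate carboxylase Pc, which refills the cycle and feeds glyceride and fatty acid synthesis, read 5.98, 5.67, 6.75, 5.54 and 6.53 in lean controls. It read 8.20, 8.41, 7.84, 8.61 and 7.52 with rosiglitazone. The groups did not overlap and differed 4.06-fold (2.02 ± 0.23 SE, limma, adjusted p = 7.1e-07). Obese arrays averaged 6.02, beside 6.09 in lean controls, and Pc was among the genes whose obese and lean levels were closest. The isocitrate dehydrogenase subunit Idh3a was 5.27-fold higher, the shared dehydrogenase subunit Dld 3.53-fold, citrate synthase Cs 2.90-fold and Sucla2 2.84-fold. Pdk4, a kinase that blocks the entry of pyruvate into the cycle and a PPAR target, averaged 6.57 in lean, 8.03 in obese and 9.53 in treated rats, a 7.79-fold difference from lean.

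Most subunits of the respiratory chain were higher. Of 28 complex I genes 26 were higher and 0 lower, with a median of 1.01, and of 22 genes of complexes II to IV 18 were higher and 1 lower, with a median of 1.19. Of 13 ATP synthase genes 11 were higher and 1 lower, with a median of 0.97. After quantile normalization the higher counts were 18, 14 and 9 and the medians 0.64, 0.76 and 0.61. With the SD covariate the counts were 13, 12 and 3 and the medians 0.59, 0.73 and 0.50. Without lean control replicate 3 the counts were 26, 18 and 12. Ndufv1, the NADH-binding subunit of complex I, read 5.18, 5.08, 5.92, 4.83 and 5.75 on the lean arrays and 6.90, 7.02, 6.92, 7.11 and 6.71 on the treated ones. The treated arrays were all above the lean ones, by 2.99-fold on average, and obese arrays averaged 5.68. Uqcrc1 was 3.10-fold higher and the complex IV subunit Cox7b 2.96-fold. The exceptions were Cox4i2, the hypoxia-linked isoform of a complex IV subunit (3.50 and 3.04, limma, adjusted p = 0.034), and the ATP synthase gamma subunit Atp5f1c (4.95 and 3.82, limma, adjusted p = 0.0011), and neither passed with the signal SD as a covariate.

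Mitochondrial ribosomes and protein import were higher by a smaller amount. Of 39 genes 36 were higher and 0 lower, with a median of 0.75 that fell to 0.44 after quantile normalization, when 22 were higher, and 14 were higher with the SD covariate. Timm8a1, an import chaperone, was 2.50-fold higher, the translation factor Gfm1 2.42-fold and the matrix chaperone Hspa9 2.40-fold. Enzymes that break down branched-chain amino acids were higher for 15 of 19 genes and lower for 0 (10 and 1 after quantile normalization, 8 and 1 with the SD covariate), among them Acat1 (4.33-fold), Acadsb (2.96-fold) and Auh (2.52-fold). The antioxidant list showed 19 of 26 higher and 0 lower (11 and 0 after quantile normalization, 6 and 0 with the SD covariate). Its members include the mitochondrial superoxide dismutase Sod2 (3.97-fold), the mainly cytosolic peroxiredoxin Prdx6 (6.03 in lean and 7.61 in treated rats) and the mitochondrial peroxiredoxin Prdx3 (2.98-fold). Sod2 averaged 5.93 in lean, 6.27 in obese and 7.91 in treated rats. The median differences of obese from lean arrays were 0.31 for fatty acid oxidation, 0.28 for complex I and 0.18 for mitochondrial ribosome and import genes. At an unadjusted p under 0.05 in limma, 0 genes of the fatty acid oxidation, citric acid cycle, complex I, mitochondrial ribosome, branched-chain and antioxidant lists were lower with rosiglitazone.

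**Figure D3:**
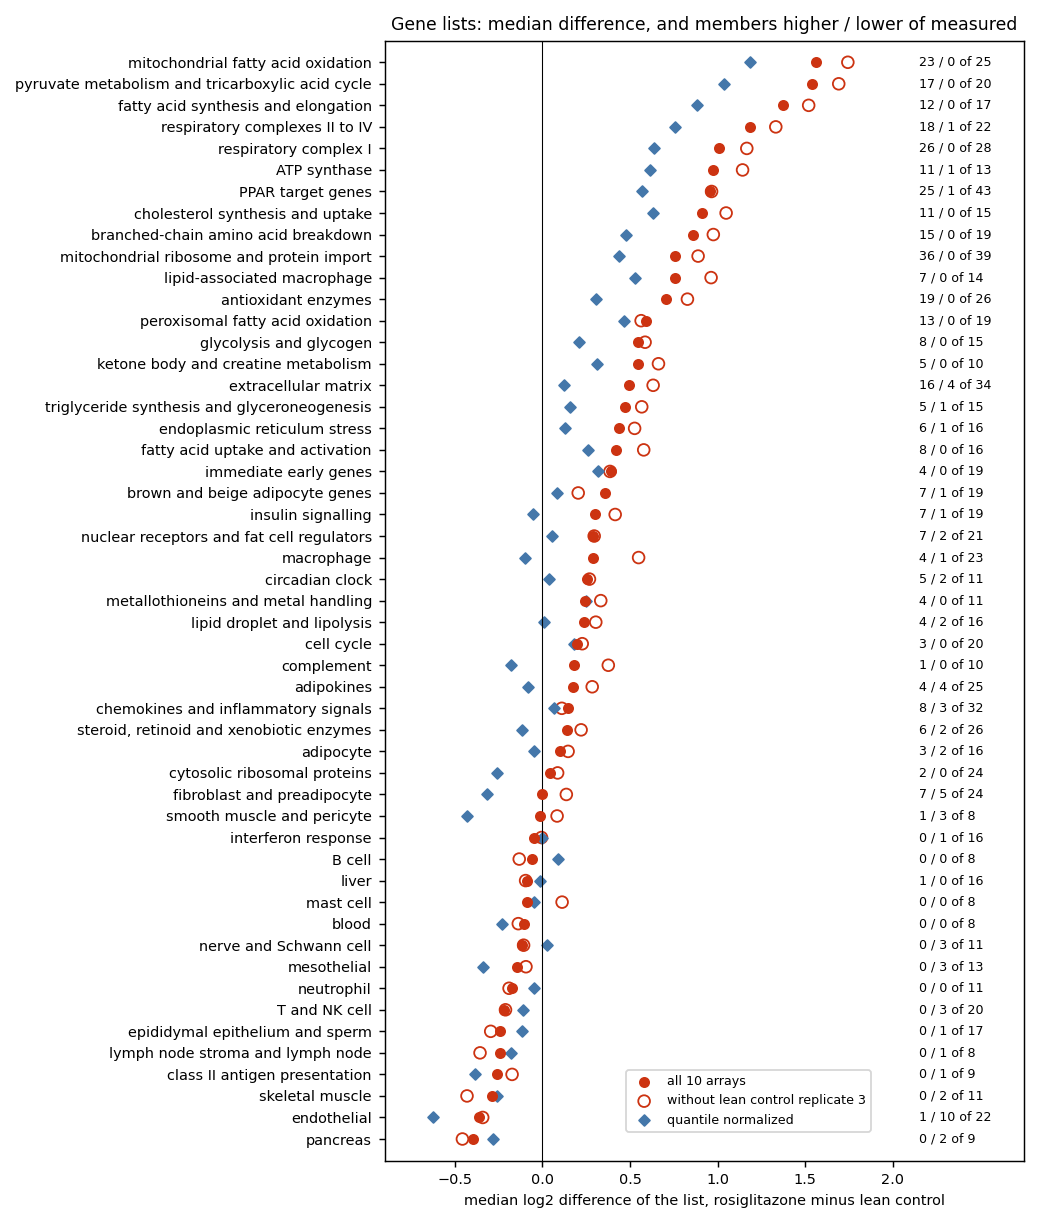
Each row is a gene list with at least 8 measured members, and the x axis gives the median log2 difference, rosiglitazone minus lean control; filled red points use all 10 arrays, open ones leave out lean control replicate 3 and blue diamonds follow quantile normalization. The numbers at the right count members called higher / lower of those measured; fatty acid oxidation is at the top (23 / 0 of 25, median 1.56), and the endothelial list is near the foot (1 / 10 of 22, median -0.36).

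Fatty acid synthesis was higher beside oxidation. Of 17 genes of synthesis and elongation 12 were higher and 0 lower, with a median of 1.37, and after quantile normalization 11 were higher and 1 lower. Malic enzyme Me1, which makes NADPH for synthesis, read 6.15, 4.28, 7.42, 4.91 and 5.43 in lean controls and 9.90, 10.11, 9.07, 9.92 and 8.83 with rosiglitazone. The elongase Elovl6, which lengthens palmitate, read 4.04, 3.20, 5.96, 3.91 and 4.20 in lean controls and 8.68, 9.42, 7.56, 8.40 and 7.19 in treated rats. For both genes lean replicate 3 was the highest lean array yet stayed below all treated ones. Me1 differed 15.2-fold (3.93 ± 0.36 SE, limma, adjusted p = 3.2e-08) and Elovl6 15.9-fold (3.99 ± 0.38 SE, limma, adjusted p = 5.2e-08). Citrate lyase Acly was 5.46-fold higher and the desaturase Scd 2.70-fold, while the lipogenic regulator Srebf1 averaged 5.06 and 5.13 (limma, adjusted p = 0.89). The lipase-like Pnpla3 was 5.88-fold higher, with obese arrays (4.30) at the lean level (4.23).

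The cholesterol list was higher for 11 of 15 genes and lower for 0, with a median of 0.91 (9 and 0 after quantile normalization, 5 and 0 with the SD covariate). Dhcr7, which completes cholesterol synthesis, was 3.88-fold higher, Nsdhl 3.56-fold and the sterol sensor Insig1 3.15-fold. Farnesyl diphosphate synthase Fdps averaged 3.25 in lean, 4.28 in obese and 5.30 in treated rats, and its obese arrays lay between the other groups. Here the median difference of obese from lean arrays was 0.57, and 2 of the 15 genes passed.

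Fatty acid handling at the membrane and droplet gave mixed counts, which stand beside 34.5% higher and 6.41% lower among all genes above background. Of 16 uptake and activation genes 8 were higher and 0 lower (6 higher and 1 lower after quantile normalization), including the transporter Slc27a1 (3.92-fold) and the ligase Acsl3 (2.89-fold), while the scavenger receptor Cd36 averaged 10.59 and 10.68 and lipoprotein lipase Lpl 11.25 and 11.27 and neither was called. Of 15 triglyceride synthesis genes 5 were higher and 1 lower (8 and 1 without lean control replicate 3, 2 and 1 after quantile normalization, 0 and 1 with the signal SD as a covariate). Of 16 lipid droplet and lipolysis genes 4 were higher and 2 lower (7 and 3 without lean control replicate 3, 3 and 3 after quantile normalization). Cidea, a droplet protein that promotes fusion, read 6.99, 6.34, 9.56, 6.98 and 7.56 in lean controls and 10.38, 10.46, 10.35, 10.63 and 9.94 in treated rats. The groups did not overlap, but lean replicate 3 lay much nearer the treated arrays than the other lean arrays. The difference was 2.87 with all arrays and 3.38 without replicate 3 (limma, adjusted p = 1.8e-06 and 1.1e-11). Abhd5, the activator of the triglyceride lipase, was 2.10-fold higher, whereas the lipase Pnpla2 (10.39 and 10.70) and the coat protein Plin1 (9.95 and 10.06) were not called.

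Of 43 measured PPAR target genes, a list that shares members with those above, 25 were higher and 1 lower, with a median of 0.96 (22 and 1 after quantile normalization, 30 and 1 without lean control replicate 3). Cyp4b1, a fatty acid and xenobiotic hydroxylase, was 13.0-fold higher and rose from 5.43 to 9.13. The lower member was Pck1, whose enzyme makes glycerol backbone from pyruvate in fat, at 9.15 and 8.16 (limma, adjusted p = 0.013), and its groups overlapped. Among the receptors themselves Ppara was higher, at 3.34 in lean, 3.24 in obese and 4.64 in treated rats (2.45-fold). Pparg is not among the genes analysed here.

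Thermogenic genes changed unevenly. Of 19 brown and beige fat genes 7 were higher and 1 lower (8 and 1 after quantile normalization), and 11 of the 19 were above background. Fabp3 (41.3-fold), Cpt1b (10.3-fold) and Cidea (7.29-fold), described above, belong to this list and were among its higher members. Ucp1, the heat-producing uncoupler of brown fat, read 1.18, 1.33, 1.29, 1.61 and 1.73 in lean controls and 2.94, 2.55, 2.63, 2.29 and 1.73 with rosiglitazone. It was called higher (limma, adjusted p = 3.0e-04), but all 10 arrays lay under the background level of 3.11 and the fold cannot be read as a level. The coactivator Ppargc1a was likewise near background in both groups (2.07 and 2.73, limma, adjusted p = 0.033). Ucp3, an uncoupler of muscle and fat, was above background and 2.25-fold higher, and the brown fat regulator Ebf2 was lower, at 5.81 and 4.90.

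Albumin (Alb), the plasma protein made mainly in liver, read 4.52, 5.84, 4.32, 6.45 and 6.65 in lean controls and 9.29, 9.61, 9.42, 9.90 and 8.61 with rosiglitazone. Obese arrays ranged from 3.46 to 7.42 and resveratrol arrays averaged 3.89. All treated arrays were above every other array of the study, by 14.1-fold over lean (limma, adjusted p = 8.8e-06). Of 16 measured liver genes Alb was the 1 called higher and 0 were lower (1 and 2 after quantile normalization), and 4 were above background. The other three above background were transferrin Tf (7.28 and 7.06), Rbp4 (8.54 and 8.74) and Hpd (5.00 and 4.45), which were not called as deposited; Tf and Hpd were called lower after quantile normalization. The metallothionein Mt2A, a zinc-binding stress protein, read 1.89, 3.85, 5.31, 3.47 and 2.13 in lean and 7.62, 6.06, 8.66, 7.23 and 8.28 in treated rats. It differed 18.9-fold from lean, and obese arrays (5.97 to 6.54) lay above every lean array (2.95 over lean, limma, adjusted p = 0.0064).

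**Figure D4:**
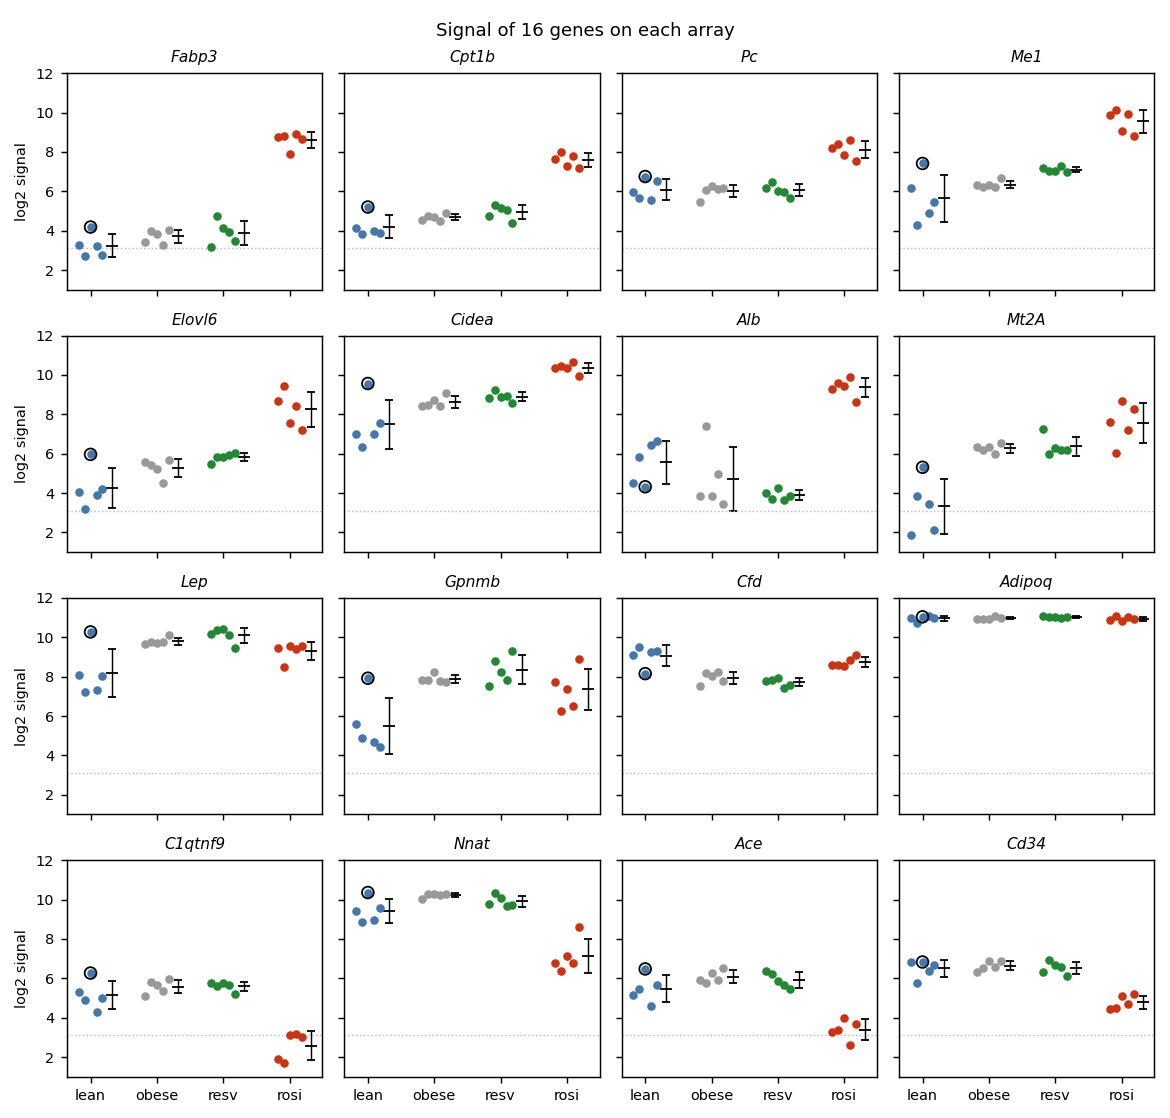
Each panel is a gene, with the log2 signal of each array on the y axis by group (lean control, obese, resveratrol, rosiglitazone; 5 arrays each), a bar for the mean ± SD and a dotted line at the background level of 3.11; circles mark lean control replicate 3. Fabp3, Cpt1b, Pc, Alb, Nnat and Cd34 set the rosiglitazone arrays apart from the other 3 groups, whereas for Lep and Gpnmb the circled array lies with the obese ones.

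Hormone genes of fat cells showed no common direction. Adipoq averaged 10.96 and 10.95 (limma, adjusted p = 0.94) and resistin Retn 6.93 and 7.12 (limma, adjusted p = 0.69). Leptin Lep, the satiety hormone, read 8.10, 7.24, 10.27, 7.31 and 8.02 in lean controls and 9.44, 8.49, 9.57, 9.39 and 9.55 in treated rats. Lean replicate 3 was above all treated arrays and above the highest obese array (10.12), and treated replicate 2 was the lowest of its group. The difference was 1.10 with all arrays (limma, adjusted p = 0.028) and 1.62 without replicate 3 (limma, adjusted p = 6.1e-06). It did not pass after quantile normalization (limma, adjusted p = 0.089) and was -0.10 with the signal SD as a covariate. Adipsin Cfd averaged 9.06 in lean, 7.95 in obese and 8.73 in treated rats. With all arrays as deposited, treated did not pass against lean (limma, adjusted p = 0.25). Cfd was called lower without replicate 3 (-0.56, limma, adjusted p = 0.012) and after quantile normalization with all arrays (-0.71, limma, adjusted p = 0.046). With the SD covariate it did not pass (limma, adjusted p = 0.82).

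Of 25 adipokine genes 4 were higher and 4 lower (7 and 7 without lean control replicate 3, 5 and 7 after quantile normalization). With the SD covariate it was 0 and 3. As deposited, Lep, Angptl8, C1qtnf1 and the natriuretic peptide clearance receptor Npr3 were higher, and C1qtnf9, Nnat, Serpina12 and C1qtnf2 lower. C1qtnf9, a secreted relative of adiponectin, read 5.31, 4.91, 6.27, 4.31 and 4.99 in lean controls and 1.92, 1.70, 3.13, 3.15 and 3.03 with rosiglitazone. It was 5.94-fold lower, and because the treated mean of 2.59 was near background the fold is approximate. Neuronatin Nnat, an imprinted membrane protein, read 9.44, 8.85, 10.36, 8.95 and 9.58 in lean and 6.78, 6.38, 7.13, 6.79 and 8.63 in treated rats, with obese arrays at 10.23 on average. It was 4.91-fold lower, and the highest treated array came close to the lowest lean one. The lactate receptor Hcar1, which restrains lipolysis, was 4.01-fold lower, with obese arrays between (6.00 lean, 5.05 obese, 3.99 treated), and the related Hcar2 was 2.54-fold lower. Acvr1c, an activin receptor of fat cells, was 3.18-fold lower and stood near the obese level (7.49 lean, 6.30 obese, 5.82 treated).

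Insulin signalling genes gave no direction that held across scalings. Of 19 genes 7 were higher and 1 lower as deposited, 4 higher and 5 lower after quantile normalization, and 0 higher and 1 lower with the signal SD as a covariate. The insulin-responsive glucose transporter Slc2a4 read 3.27, 3.18, 4.16, 3.45 and 3.93 in lean and 4.39, 4.54, 3.96, 4.92 and 3.59 in treated rats. The groups overlapped, and the difference of 0.68 passed as deposited (limma, adjusted p = 0.024) but not after quantile normalization (limma, adjusted p = 0.069). Irs3, an insulin receptor substrate of rodent fat cells, was 2.03-fold higher and Irs1 1.91-fold lower, at 4.95 and 4.02. In glycolysis and glycogen 8 of 15 were higher and 0 lower (6 and 0 after quantile normalization), including Pgk1 (5.66 and 7.04), Ldhb (2.56-fold) and glycogen synthase Gys1 (2.14-fold).

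Endothelial genes were the cell type list with the most lower calls. Of 22 measured genes 10 were lower and 1 higher, with a median of -0.36. Without lean control replicate 3 it was 7 lower and 1 higher, and after quantile normalization 14 and 1. Over the list, mean levels per array ran from 4.52 to 5.29 in lean and from 4.35 to 4.69 in treated rats, and those ranges overlapped. The endothelial and progenitor antigen Cd34 read 6.84, 5.78, 6.83, 6.36 and 6.70 in lean and 4.42, 4.47, 5.09, 4.72 and 5.18 in treated rats. It was 3.31-fold lower without overlap, and obese arrays averaged 6.64. The tight junction protein Cldn5 was 3.54-fold lower, the sialomucin Emcn 2.32-fold, the junction cadherin Cdh5 1.94-fold and the transcription factor Sox17 1.92-fold. The exception was von Willebrand factor Vwf, which was 2.31-fold higher (4.09 and 5.29). Angiotensin-converting enzyme Ace, a surface enzyme of endothelium and other cells, read 5.14, 5.47, 6.48, 4.62 and 5.68 in lean and 3.29, 3.39, 4.01, 2.61 and 3.68 in treated rats, 4.23-fold lower. The median difference of obese from lean arrays over the 22 endothelial genes was 0.31.

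Fibroblast and preadipocyte genes split. Of 24 measured 7 were higher and 5 lower, with a median of 0.00. After quantile normalization 4 were higher and 9 lower, with a median of -0.32. With the SD covariate 2 were higher and 8 lower, with a median of -0.44. Without lean control replicate 3 it was 7 and 4. The Wnt antagonist Sfrp1 (5.60-fold), Ccn5 (8.42-fold) and Pdgfrb (2.37-fold) were higher. Of 20 other settings tried, Sfrp1 and Ccn5 passed in 20 and Pdgfrb in 18. Collagen XIV (Col14a1, 4.70-fold), lumican (Lum, 2.20-fold) and collagen III (Col3a1, 1.77-fold) were lower. Col14a1 read 5.92, 6.48, 7.90, 6.14 and 6.44 in lean and 3.16, 5.11, 3.91, 4.31 and 5.23 in treated rats, while obese arrays averaged 7.27. Of 13 mesothelial genes 0 were higher and 3 lower (0 and 5 after quantile normalization), including Efemp1 (7.92 in lean, 7.92 in obese and 6.02 in treated rats). Of 8 smooth muscle and pericyte genes 1 was higher and 3 lower (0 and 4 after quantile normalization, 1 and 2 without lean control replicate 3).

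Of 34 matrix genes 16 were higher and 4 lower, with a median of 0.49. Among all genes above background 34.5% were higher and 6.41% lower, with a median of 0.30. The list gave 19 and 4 without lean control replicate 3, 10 and 7 after quantile normalization and 7 and 5 with the SD covariate. Its median with the SD covariate was 0.04. Cilp, a matrix protein that binds TGF-beta, read 3.75, 3.57, 4.85, 3.37 and 3.54 in lean and 6.73, 7.47, 7.75, 8.29 and 8.12 in treated rats. It was 14.5-fold higher without overlap, and obese arrays averaged 5.07. Thrombospondin Thbs2 (10.1-fold), collagen VIII (Col8a1, 10.5-fold), the crosslinking enzymes Lox (6.30-fold) and Loxl1 (6.25-fold) and the growth factor-binding Ccn2 (3.48-fold) were higher, as was the lubricant Prg4 (10.9-fold). Col8a1 in lean rats (2.68), like Olr1, Ccl7, Sectm1b, Stc2 and Hspb7 there and Cldn5 and Cxcl13 in treated rats, averaged near background, so these folds are approximate. The gelatinase Mmp2 was 2.30-fold lower and the metalloproteinase inhibitor Timp4 2.08-fold lower.

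**Figure D5:**
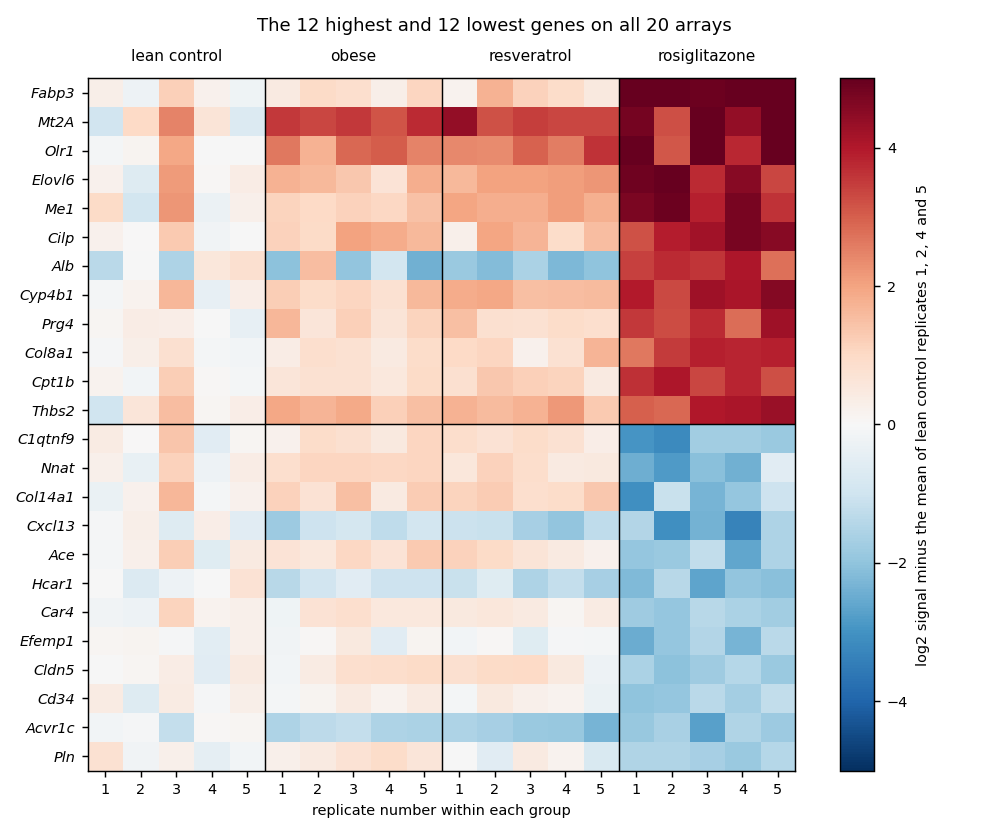
Rows are 12 higher and 12 lower genes, those of largest difference whose groups did not overlap, columns are the 20 arrays by group and replicate, and colour gives the log2 signal minus the mean of lean control replicates 1, 2, 4 and 5, cut at 5 in either direction. Lean control replicate 3 is above the other lean arrays for Olr1, Cilp, Cpt1b and Col14a1 and below them for Acvr1c.

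Macrophage gene counts changed when lean control replicate 3 was left out. Of 23 macrophage genes 4 were higher and 1 lower with all arrays, 7 and 0 without that array, and 1 and 2 after quantile normalization. The list's mean level was 6.07 on replicate 3, 4.85 to 5.24 on the other lean arrays, 5.04 to 6.35 on the treated and 5.37 to 5.96 on the obese arrays. The lysosomal glycoprotein Gpnmb, a marker of lipid-laden macrophages, read 5.59, 4.90, 7.92, 4.68 and 4.42 in lean and 7.70, 6.26, 7.38, 6.50 and 8.88 in treated rats, and obese arrays averaged 7.87. Apart from replicate 3, all lean arrays were below all treated ones. The difference was 1.85 with all arrays and 2.45 without it (limma, adjusted p = 0.008 and 2.8e-05), and with the signal SD as a covariate it did not pass (limma, adjusted p = 0.56). Of 14 genes of lipid-associated macrophages 7 were higher and 0 lower, 10 and 0 without replicate 3, and 5 and 0 after quantile normalization. Between obese and lean arrays 5 of those genes were higher, and between rosiglitazone and obese arrays 1 was.

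Several of these genes are made by other cells too. The oxidized LDL receptor Olr1, also a PPAR target, read 2.14, 2.40, 4.20, 2.24 and 2.24 in lean and 7.53, 5.36, 7.47, 6.04 and 7.53 in treated rats, 17.7-fold higher, with obese arrays averaging 4.81. Plin2, a droplet coat protein, was 5.55-fold higher, and its obese mean of 7.63 lay between 5.90 and 8.37. Galectin Lgals3 was 3.97-fold higher and cathepsin Ctsd 3.02-fold. The general macrophage marker Cd68 averaged 4.90 and 6.01 and did not pass with all arrays but did without replicate 3 (limma, adjusted p = 0.051 and 6.8e-04). Lymphocyte and granulocyte genes were dim: 0 of 8 B cell, 1 of 20 T and NK cell and 0 of 11 neutrophil genes were above background.

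Chemokines diverged. Of 32 chemokine and inflammatory genes 8 were higher and 3 lower (9 and 5 after quantile normalization, 2 and 2 with the SD covariate). Of the 32, 18 were above background, and the median difference of the list was 0.15. Over all genes 18.4% were higher and 6.55% lower, and among those above background 34.5% and 6.41%. The list counts are therefore not read as a result about chemokines as a group. The monocyte attractant Ccl2 read 4.09, 3.86, 5.04, 4.71 and 5.69 in lean and 7.17, 5.98, 8.87, 6.31 and 8.15 in treated rats. The groups did not overlap, and the difference was 6.14-fold (2.62 ± 0.39 SE, limma, adjusted p = 2.7e-05), while obese arrays averaged 4.68. Its relative Ccl7 was 4.26-fold higher, from a lean mean near background. The B cell attractant Cxcl13 read 5.11, 5.45, 4.51, 5.47 and 4.59 in lean and 3.70, 2.09, 2.78, 1.82 and 3.63 in treated rats, 4.67-fold lower. The alarmin Il33 was 2.26-fold lower (6.28 lean, 6.57 obese, 5.11 treated).

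Clock genes were examined because sampling time can move them, and no label states when tissue was collected. Of 11 genes 5 were higher and 2 lower, against 1 and 4 after quantile normalization. The activators Npas2 (3.36 and 4.76) and Bmal1 (3.81 and 5.15) were higher, and the repressors Per2 (5.01 and 4.24) and Per3 (6.00 and 4.73) lower. Of 20 other settings tried, Npas2 passed in 19, Bmal1 in 9, Per2 in 19 and Per3 in 14. Bmal1, Per2 and Per3 overlapped between groups, and the output gene Dbp ranged from 5.92 to 9.13 in lean and from 4.84 to 8.46 in treated rats (limma, adjusted p = 0.12). Their part in the other differences was not tested.

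Set beside the untreated obese arrays, the named genes fell into patterns. For Pc, Sectm1b, Akr1c15 and Stc2, at least 4-fold higher than lean, obese arrays differed from lean controls by -0.07, -0.01, 0.05 and 0.09. The retinol dehydrogenase Rdh12, near background in lean rats, averaged 1.97 in lean, 2.14 in obese and 5.18 in treated rats. For Hspb7, Fdps and the secreted phospholipase Pla2g2a, in contrast, treated arrays did not pass against obese ones. Pla2g2a read 8.94, 9.81, 6.83, 8.70 and 8.82 in lean and 5.96, 7.86, 4.81, 4.26 and 4.71 in treated rats, with obese arrays averaging 6.25. It was 8.58-fold lower than in lean rats (limma, adjusted p = 0.0012), but lean replicate 3 lay inside the treated range. A further pair was lowest in obese rats: carbonyl reductase Cbr1 averaged 7.81, 8.68 and 5.82 in lean, treated and obese rats, and the amino acid transporter Slc36a2 4.46, 4.91 and 2.95. Neither passed between treated and lean arrays (limma, adjusted p = 0.079 and 0.37), although Cbr1 was higher in treated than in lean rats under 4 of 20 settings, and both passed between treated and obese arrays (limma, adjusted p = 6.4e-06 and 4.9e-04).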

How the data were processed

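Total RNA (100 ng per sample) of 20 epididymal samples was hybridised to Affymetrix Rat Gene 2.1 ST arrays, per the labels' protocols. The authors deposited log2 signal values for 36685 features, made with RMA per the submitters' processing notes (version not given in the sources used here). No further normalization was applied to the main values. The platform annotation named exactly 1 gene for 14824 probe sets, several for 829 and none for 21032 features. Where several probe sets named the same gene (234 genes), the brightest was used. Levels span -0.17 to 12.5, and array signal compresses folds, most of all near background.

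Group means were fitted over all 20 arrays with limma 3.58.1 in R 4.3.3, with Benjamini-Hochberg adjustment over 14557 genes. Adjusted p-values are from that model unless a left-out array, quantile normalization or the SD covariate is named, in which case they are from the same model refitted that way. The number of arrays limits the precision (median standard error 0.17). Titles call replicates biological, and nothing else says how the animals were chosen. Replicate numbers were not treated as pairs, since same-numbered arrays did not deviate together (correlations -0.09 to 0.02).

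The comparison, its gene lists (51) and the alternatives were chosen with earlier results of these data known. Named genes were the 12 highest and 12 lowest by difference among those called with and without lean control replicate 3 and not overlapping, the 3 smallest p-values of each list, a set of anchor genes, genes of at least 4-fold closest between obese and another group, and genes called only without that replicate. A further 47 genes were named after their values were seen. On simulated data, 200 genes of above-median level were changed. Of 2-fold changes 83.9% were recovered, and 4.98% of calls were false. The simulated arrays had independent noise per gene, no array-wide difference between groups and no array that stood apart. These rates therefore need not hold for the calls here. Alternatives were other scalings, filters and variance models, a replicate block and leaving out each array. Promoters are from a RefSeq table of GRCr8, and figures were drawn with matplotlib 3.10.9.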

Additional observations from a re-analysis of the deposited data

Results flagged for a closer look

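Single arrays lay far from the other 4 of their group for some named genes, by a gap that exceeded Dixon's 95% critical value as a share of the group's whole range. Chance alone flags about 1 in 20 groups, and 20 of 432 groups tested met the rule. That rate is only a rough guide, since some named genes were chosen for groups that did not overlap. The total was no more than it gives, but the flags were spread unevenly. Of these 20, 14 were lean control replicate 3. It was the highest lean array for Olr1 (0.875 of the range), Ptpn1 (0.818), Cd68 (0.794), Sfrp1 (0.784), Cpt1b (0.764), Lum (0.75), Cilp (0.739), Hspb7 (0.727), C1qtnf1 (0.719), Col14a1 (0.716), Lep (0.716) and Hsd17b4 (0.714). It was the lowest lean array for Acvr1c (0.838) and Fcrla (0.736). On that array C1qtnf1 read 8.43, against 5.42 to 6.27 on the other lean arrays, and Lum 7.48 against 5.46 to 5.97.

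The rosiglitazone group gave the rest. Replicate 2 was lowest for Lep (0.831 of the range; 8.49 against 9.39 to 9.57), and replicate 3 was lowest for Fabp3 (0.738; 7.88 against 8.64 to 8.91). Replicate 5 was highest for Mmp2 (0.806) and for the nucleotide synthesis gene Rrm1 (0.749), and replicate 4 for Pgk1 (0.736). Replicate 3 was also highest for the sperm gene Tnp1 (0.754), at 1.91, which is near background.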

How the results depend on the processing

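Quantile normalization gave 1466 higher genes against 2678 as deposited. The array signal SD as a covariate gave 1116 calls (614 higher, 502 lower), and with lean control replicate 3 left out as well 817 (511 and 306). Fitting only the 10 arrays gave 579 lower genes, keeping only genes above background 551, and asking for at least 2-fold left 768 (644 higher, 124 lower). Leaving out each array in turn gave 2771 to 4868 calls, 2041 to 3442 higher and 671 to 1426 lower, with the highest count without lean control replicate 3. Median subtraction (3719), averaging probe sets (3630), a variance trend with robust estimates (3557) and array weights (3884) gave similar totals. The replicate number as a block gave 3586 calls, and no array correlated best with its own number, so the numbers were not taken to pair the arrays. As deposited, with quantile normalization, with the SD covariate and without replicate 3 alike, 564 genes were called higher and 251 lower. Of 166 named genes called, 95 passed under every one of the 20 settings in which they were fitted. For Ucp1 and Vdr these were 19 settings, since keeping only genes above background left them out. Lep reversed with the SD covariate (-0.10, limma, adjusted p = 0.902) and passed in 8 of 20 settings; the cause was not tested. Signal near background limits folds for 7549 genes whose mean lay under 3.11.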

Other observations

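Further lists gave these counts. Of 24 cytosolic ribosomal protein genes 2 were higher and 0 lower as deposited, with 3 higher and 1 lower at an unadjusted p under 0.05 in limma, but 0 higher and 9 lower after quantile normalization. Of 16 endoplasmic reticulum stress genes 6 were higher and 1 lower (2 and 1 after quantile normalization, 10 and 1 without lean control replicate 3). Ero1a, an oxidase of protein folding, was 2.01-fold higher. With the SD covariate 0 of the 16 were higher and 0 lower, and Ero1a did not pass (limma, adjusted p = 0.13). Of 19 immediate early genes 4 were higher and 0 lower (4 and 1 after quantile normalization). Without lean control replicate 3 it was 7 and 0, and with the SD covariate 1 and 1. Ier3, an immediate early gene, averaged 2.88 in lean rats, near background, and 4.20 in treated rats. Of 20 cell cycle genes 3 were higher and 0 lower (3 and 1 after quantile normalization), among them Pcna (1.99-fold) and Rrm1 (2.42-fold), and none of these 3 passed with the signal SD as a covariate. Of 16 interferon response genes 0 were higher and 1 lower, Usp18 (2.91 and 2.19, near background in both groups). Without lean control replicate 3 it was 3 higher and 0 lower, and Usp18 did not pass (limma, adjusted p = 0.058, and 0.077 after quantile normalization with all arrays). Of 9 class II antigen presentation genes 0 were higher and 1 lower, the invariant chain Cd74 (10.10 and 9.53). Without lean control replicate 3 it was 2 higher and 0 lower, and Cd74 did not pass (limma, adjusted p = 0.095). After quantile normalization it was 0 and 2, and with the SD covariate 0 and 4.

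Genes called without lean control replicate 3 but not with all arrays included Hspb1, a small heat shock protein (difference 0.74 with all arrays, 1.22 without that array), the oligosaccharyltransferase subunit Dad1 (0.61 and 0.96) and the peptidase Trhde (-0.89 and -1.36). Among 1116 genes called with at least a 2-fold difference without replicate 3, that array lay nearer the rosiglitazone mean than the mean of the other lean arrays for 762 (68.3%). These genes were chosen for a gap between the other lean arrays and rosiglitazone, which can raise this share. The share was not computed with any other lean array left out.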
